A study of Mus musculus with 16 samples.

Results

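Fixed windows of 1 Mb that held no anchor of any chromatin loop called in the newborn mouse cochlea were taken from the loop list deposited for this tissue. The windows were chosen by the number of anchor bins they held: a window of the mm10 genome on chromosomes 1 to 19 was a member when it lay fully between the first and the last anchor bin of its chromosome and contained 0 anchor bins of 10 kb. Of the 2348 windows between the outermost anchor bins, 408 (17.4%) had no anchor bin, which is 408 Mb of sequence. The number of anchor bins is therefore given as a description of how the windows were picked, and the results concern what the windows contain, what lies beside them and which loops pass over them.

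A chromatin loop is a pair of distant positions that meet in the nucleus more often than their surroundings do, and its ends are called anchors. Many anchors carry the DNA-binding protein CTCF, which halts the ring complex cohesin while it extrudes chromatin, and loops form most readily between CTCF motifs that point towards each other. Other anchors lie at promoters and enhancers. Mammalian genomes also hold long stretches with few genes, and arrays of related genes that arose by tandem duplication, such as the olfactory and vomeronasal receptors, which detect odours and pheromones and are active one at a time in sensory neurons of the nose.

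Contacts were mapped by Micro-C in whole cochlea of mice. Chromatin fixed with disuccinimidyl glutarate and formaldehyde is digested by micrococcal nuclease, and ends close in space are joined. The library names give the age as P0, the day of birth, while the study's text gives P0/P1. The 4 replicates, of which the study's results call 3 biological and 1 technical, were merged before the loops were called, so no spread between replicates exists for any value below. The file states no read depth. The study reports read pairs for each replicate, most of them in the technical one, and these counts were not used here. The cochlea was profiled whole, so loops present in few of its cells and loops that are weak in all of them cannot be told apart, and a list of loops cannot be checked against the marker genes of the tissue. The series also holds 12 ATAC-seq and CUT&RUN libraries, which were not analysed here.

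The list held 6798 loops, 6689 of them on chromosomes 1 to 19, where they used 11622 distinct anchor bins. The median window had 5 anchor bins and the highest count was 19. Just outside the threshold stood 156 windows with exactly 1 anchor bin, whose values are given beside those of the members. Intervals are 95% intervals, Wilson intervals for shares and order-statistic intervals for medians. They cover counting error over windows or genes only, and neighbouring windows are not independent.

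**Figure D1:**
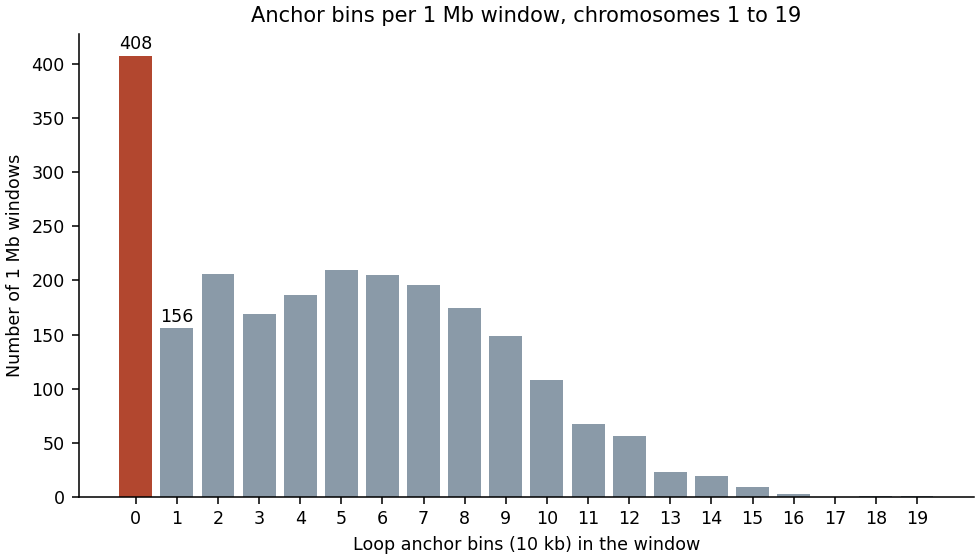
Number of 1 Mb windows (vertical axis) by the number of 10 kb loop anchor bins they hold (horizontal axis), chromosomes 1 to 19. The 408 windows without an anchor (red) are the most frequent class, against 156 windows with 1 anchor bin, and the counts tail off to a highest value of 19.

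The sequences that bear on these windows are shown first. One set is taken from loops that pass over a member, because these anchors enclose the empty sequence. At 5 of the 30 such loops both anchors held a best match to the CTCF consensus in a single orientation, and in 4 of the 5 these matches pointed towards each other. No share over all loops is given beside these counts. Both ends of those 4 loops are listed. The 14 bases that match the consensus, with at most 1 mismatch, are in capitals within 10 bases of flanking sequence on either side, read 5′ to 3′ on the strand of the match (GRCm38). Where an anchor had several equally good matches, 1 is shown. The anchor at the Myc start site pairs with each of the other 2 sites listed for chromosome 15.
Myc anchor, chr15:61983421-61983454, plus strand: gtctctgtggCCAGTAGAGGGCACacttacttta
first partner of the Myc anchor, chr15:63652713-63652746, minus strand: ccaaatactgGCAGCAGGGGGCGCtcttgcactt
second partner of the Myc anchor, chr15:63740737-63740770, minus strand: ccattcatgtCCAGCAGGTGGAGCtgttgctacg
Chrm3 anchor, chr13:9882452-9882485, plus strand: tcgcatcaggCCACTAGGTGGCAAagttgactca
Ryr2 anchor, chr13:11563813-11563846, minus strand: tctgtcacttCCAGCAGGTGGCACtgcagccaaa
upstream anchor of the Mgat4c window, chr10:100742244-100742277, plus strand: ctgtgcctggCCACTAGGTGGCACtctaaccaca
downstream anchor of the Mgat4c window, chr10:102151971-102152004, minus strand: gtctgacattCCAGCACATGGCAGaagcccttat
upstream anchor of the Cyp2c window, chr19:38982154-38982187, plus strand: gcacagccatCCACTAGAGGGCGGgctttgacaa
The last site is not from a convergent pair and is the upstream anchor of the loop with the lowest FDR of the whole list, which passes over a member window.

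A second set shows promoters of genes that start in the members, 250 bases before to 50 bases after the RefSeq start (GRCm38.p6), because the gene content of these windows is described below by how many CG dinucleotides surround the start sites. CG dinucleotides are in capitals. Olfr466 encodes an olfactory receptor and Vmn2r124 a type 2 vomeronasal receptor, and both were taken as the promoter nearest to the median CG count of their family in the members. Pcdh15 encodes a protocadherin of the hair cell tip link, and Ube3a encodes a ubiquitin ligase that is imprinted in neurons. The RefSeq start of Pcdh15 lies inside the gene body that GENCODE gives it.
Olfr466, chr13:65151976-65152275, plus strand: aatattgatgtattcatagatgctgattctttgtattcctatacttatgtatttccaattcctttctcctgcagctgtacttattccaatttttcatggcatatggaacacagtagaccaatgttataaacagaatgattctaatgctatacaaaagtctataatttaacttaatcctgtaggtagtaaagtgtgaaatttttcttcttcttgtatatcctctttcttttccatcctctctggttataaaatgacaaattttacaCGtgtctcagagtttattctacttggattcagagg
Vmn2r124, chr17:18049234-18049533, plus strand: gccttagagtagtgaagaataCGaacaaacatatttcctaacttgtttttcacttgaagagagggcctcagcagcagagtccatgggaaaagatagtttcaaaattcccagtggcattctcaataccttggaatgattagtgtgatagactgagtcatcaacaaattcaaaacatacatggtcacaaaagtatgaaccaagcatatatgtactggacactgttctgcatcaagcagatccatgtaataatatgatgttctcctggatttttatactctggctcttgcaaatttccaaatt
Pcdh15, chr10:73821617-73821916, plus strand: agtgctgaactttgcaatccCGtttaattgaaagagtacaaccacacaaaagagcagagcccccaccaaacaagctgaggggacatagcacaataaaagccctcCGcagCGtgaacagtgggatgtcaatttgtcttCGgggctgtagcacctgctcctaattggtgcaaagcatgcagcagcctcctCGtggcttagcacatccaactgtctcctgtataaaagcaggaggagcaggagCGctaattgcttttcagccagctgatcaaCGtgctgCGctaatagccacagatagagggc
Ube3a, chr7:59228500-59228799, plus strand: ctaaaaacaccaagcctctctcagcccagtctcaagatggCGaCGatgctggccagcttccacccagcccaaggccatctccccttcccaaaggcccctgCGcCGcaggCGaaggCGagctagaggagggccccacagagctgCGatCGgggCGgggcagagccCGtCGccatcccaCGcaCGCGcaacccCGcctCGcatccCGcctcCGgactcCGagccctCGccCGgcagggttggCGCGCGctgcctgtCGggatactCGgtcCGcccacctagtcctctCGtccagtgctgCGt
The receptor promoters each held 1 CG dinucleotide, the promoter of Pcdh15 held 8 and that of Ube3a held 29. Members therefore included both CG-poor and CG-rich promoters.

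Windows without an anchor were poor in genes as a group, but some of them were rich in genes. The median member held 1 protein-coding start site (the annotated 5′ end of a gene in GENCODE vM21), against 1.5 in windows with 1 anchor bin and 5 in all windows. The median number of start sites of all annotated genes was 8 in the members and 17 in all windows, while annotated pseudogenes had a median of 4 in each. The mean number of pseudogenes was 7.14 in the members and 4.75 in all windows, so a part of the members held many. No protein-coding start site lay in 166 members (40.7%), compared with 11.6% of all windows. Of these 166, 140 did not touch a protein-coding gene body at all and 26 lay inside or overlapped genes that start elsewhere.

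At the other end, 47 members (11.5%) held 20 or more protein-coding start sites, which is close to the 11.5% of all windows that did. With 10 or more it was 81 members (19.9%), fewer than the 31.3% of all windows. Windows with 5 to 9 start sites were 33 of the members (8.09%) and 24.3% of all windows. The share of windows without an anchor therefore fell and then rose with gene content. It was 60.8% where there was no start site, 32.1% with 1 start site, 6.81% with 2 to 4, 5.78% with 5 to 9, 7.30% with 10 to 19 and 17.5% with 20 or more.

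Base composition differed in the same direction across the classes. The median GC content was 37.9% (interval 37.7 to 38.1) in members, 39.0% in windows with 1 anchor bin and 41.7% in all windows. Sequence marked as repetitive made up a median of 43.2% of the known bases in members and 31.6% in all windows. The median number of matches to the CTCF consensus was 14 per Mb in members, 15 with 1 anchor bin and 22 in all windows. Over all 2348 windows the number of anchor bins had a Spearman correlation of 0.641 with CpG density, 0.622 with unique 50-base words, -0.611 with repetitive sequence, 0.576 with GC content, 0.472 with CTCF matches and 0.413 with protein-coding start sites, given as a description since neighbouring windows share composition and the members are the low end of one of the variables.

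The density of CTCF consensus matches followed GC content. Among windows of 36 to 38% GC, of which 207 of 348 (59.5%) had no anchor, the median was 12 matches in members and 12 in the rest. Among windows of 38 to 40% GC, of which 21.3% had no anchor, it was 16 in members and 16 in the rest. In these 2 classes, which hold most members, the windows with and without anchors thus had equal medians of this motif count. In windows of 46% GC and above it was 58 in the 13 members and 46 in the rest. These counts allow 1 mismatch. Exact matches, not split by GC content, had a median of 0 per Mb in members (mean 1.10) and 2 in windows with an anchor (mean 2.96). A match is a string of letters and not a measure of binding, and the CUT&RUN libraries for CTCF were not used.

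How much of a window can be read by short sequences also varied with the number of anchors. Of 50-base words sampled every 500 bases, the median share that occurs once in the genome was 86.7% in members, 88.0% with 1 anchor bin and 91.7% in all windows. In 90 members (22.1%) under 80% of the words were unique, compared with 49 of 1940 windows with an anchor (2.53%). Only uniquely mapped read pairs were kept by the authors, and the part of this measure in the absence of anchors was not tested. It is given beside the kinds of windows and gene families below. Unknown bases made up over 10% of 9 members.

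**Figure D2:**
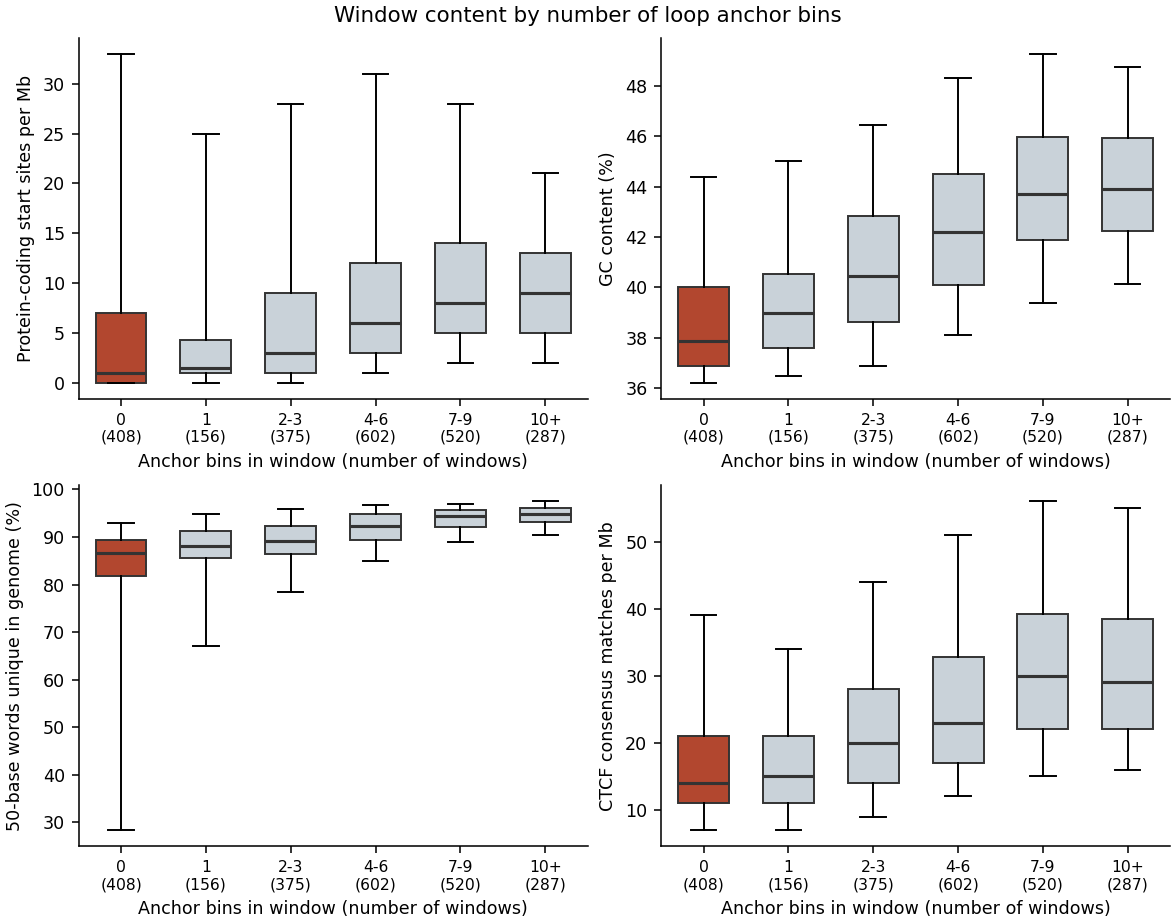
Protein-coding start sites per Mb, GC content (%), share of 50-base words unique in the genome (%) and CTCF consensus matches per Mb (vertical axes) for windows grouped by anchor bins (horizontal axes, number of windows in brackets). Boxes span the quartiles with the median as a line and whiskers run from the 5th to the 95th percentile. The members (red) have the lowest median in each panel, 1 start site, 37.9% GC, 86.7% unique words and 14 matches, and the widest spread of unique words.

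Gene content and unique sequence were also read together. Among the 83 windows with at least 90% unique words and no protein-coding start site, 33 (39.8%, interval 29.9 to 50.5) had no anchor. Among the 931 windows with at least 90% unique words and 5 or more start sites, only 6 had none (0.644%). Among the 116 windows with under 80% unique words and 5 or more start sites, 75 (64.7%) had none. Of the members with 5 or more start sites, most had under 80% unique words, while of the 166 with no start site only 6 did.

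The windows were sorted by gene content into kinds that exclude each other. The largest kind among the members were 135 windows without any protein-coding gene body and without an array of antigen receptor segments, and 67.2% of all 201 such windows had no anchor. A further 103 members held 1 to 4 start sites, which is 15.8% of such windows. Arrays with 5 or more start sites of a single gene family filled 68 members, 45.9% of the 148 such windows. Windows in which 1 gene covered 500 kb or more gave 35 members, or 18.6% of 188, which is close to the 17.4% of all windows. The lowest share was in windows with 5 or more start sites and no family array, with 45 of 1109 (4.06%). In these 45 members the median share of unique words was 71.3%, against 94.3% in the other windows of the kind, and in the 68 members with a family array it was 74.5% against 87.9%. In the 6 members with antigen receptor segments it was 74.8% against 84.3%. The gap was smaller in the kind without a protein-coding gene body, with 87.3% against 88.6%, and in windows covered by a long gene, with 90.6% against 93.1%.

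**Figure D3:**
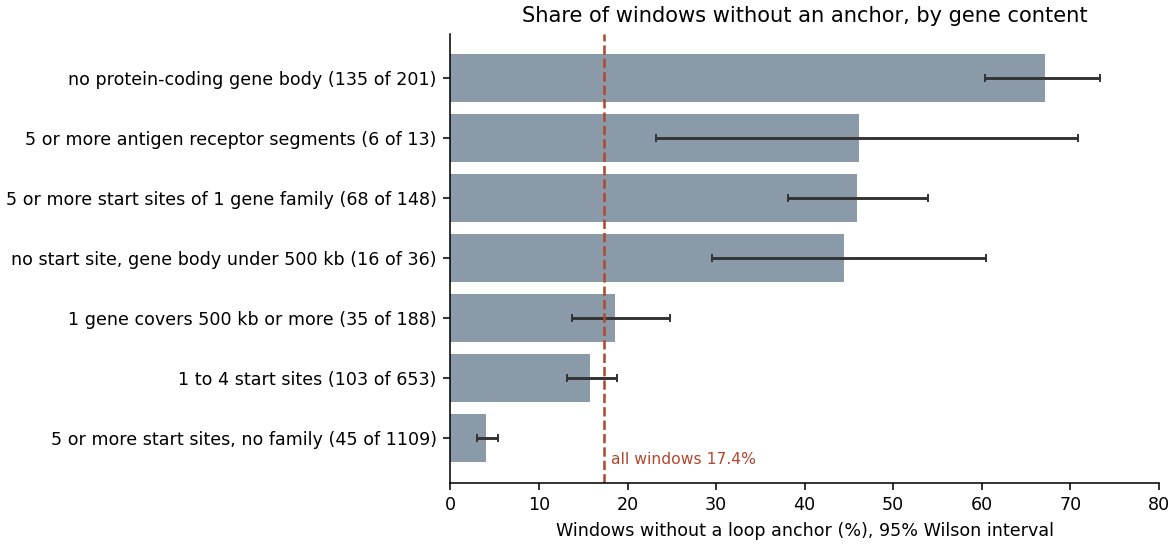
Share of windows without an anchor (horizontal axis, percent, bars with 95% Wilson intervals) for kinds of windows that exclude each other by gene content, with the number of members and of all windows in brackets. The dashed line is the share over all windows, 17.4%, and the kinds range from 4.06% to 67.2%.

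The 140 members without a protein-coding gene body held a median of 6 annotated start sites, of which pseudogenes gave a median of 3 and long noncoding RNAs a median of 1. The 66 windows without a protein-coding gene body that did hold an anchor also had a median of 6 annotated start sites and 13 CTCF matches, the same as the members. Their median GC content was 37.9% against 37.0% in the members, and their median repetitive share was 39.7% against 44.3%. No annotated start site of any kind lay in 2 members, chr1:114000001-115000000 and chr11:13000001-14000000, which are named after their values were seen.

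Clustered gene families accounted for much of the gene content of the members. Of 20125 protein-coding start sites in all windows, 2429 (12.1%) lay in members, and of the 17341 that belonged to none of the listed families 1278 (7.37%) did. Among chemosensory receptors 763 of 1442 start sites (52.9%, interval 50.3 to 55.5) lay in members. By window it was 47 of the 128 windows with any such start site. Receptors of 1 array share windows, so their start sites are not independent. Without chromosome 7, an alternative added after the data were seen, 447 of 1044 chemosensory start sites (42.8%) lay in members, against 9.34% of all protein-coding start sites. The share of members with a chemosensory start site then fell from 11.5% to 6.32%, while that of all windows went from 5.45% to 4.44%. Type 2 vomeronasal receptors had 91 of 114 start sites there (79.8%), type 1 vomeronasal receptors 140 of 205 (68.3%), bitter taste receptors 22 of 35 (62.9%) and olfactory receptors 506 of 1066 (47.5%). None of the 15 trace amine-associated receptors, which detect amines in the nose, did.

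Olfactory receptors in members were confined to 18 of the 79 windows with any olfactory receptor start site, so the arrays were large. The window with most of them, chr7:103000001-104000000, held 52, from Olfr582 to Olfr638, and enclosed the beta-globin genes Hbb-bt, Hbb-bs and Hbb-bh1. It was followed by chr2:86000001-87000000 with 49, from Olfr1032 to Olfr1102, chr2:87000001-88000000 with 47, from Olfr1104 to Olfr1158, chr2:88000001-89000000 with 44, from Olfr1160 to Olfr1214, and chr9:38000001-39000000 with 44, from Olfr883 to Olfr935. Of the 22 windows with 20 or more chemosensory start sites, 14 (63.6%, interval 43.0 to 80.3) had no anchor. The median of unique words was 81.9% in these 14 and 85.8% in the other 8. When windows with under 80% unique words were left out, 5.03% of members held a chemosensory start site, against 4.07% of all windows, whereas it was 11.5% against 5.45% with all windows.

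Large receptor arrays were also found in windows with anchors. The window chr17:37000001-38000000 held 39 olfactory receptor start sites and 2 anchor bins, chr19:13000001-14000000 held 34 and 1, and chr7:102000001-103000000 held 33 and 7. The last of these directly adjoins the member with 52 olfactory receptors. These 3 were named after their values were seen.

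Several families whose products are known from glands, placenta or oocytes had most of their start sites in members. All 15 exocrine gland secreted peptide genes, whose products act as pheromones, were in members. So were 14 of 15 Pramel and related oocyte genes, 22 of 25 prolactin family genes, which encode placental hormones, 28 of 34 secretoglobins of the androgen-binding protein kind, and 17 of 22 genes of major urinary proteins. Of 64 defensins, antimicrobial peptides of epithelia, 44 were in members, and 31 of them, from Defa21 to Defb13, shared the window chr8:21000001-22000000. In contrast, 8 of 28 pregnancy-specific glycoproteins and Ceacams (28.6%), which include placental glycoproteins, were in members. Unique words had medians of 37.4% in the 3 members with defensins, 57.2% in the 4 with secretoglobins, 76.3% in the 3 with Pramel genes and 78.7% in the 3 with exocrine gland peptides, and 15.1% and 25.4% in the 2 with major urinary proteins.

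Zinc finger genes with Zfp symbols, many of which encode KRAB repressors of transposons, had 138 of 376 start sites in members (36.7%, interval 32.0 to 41.7). Cytochrome P450 genes, which oxidise steroids and drugs, had 29 of 100 and histocompatibility H2 genes 11 of 34. Cathepsins had 9 of 23, natural killer cell lectin-like receptors 9 of 26, tripartite motif genes 13 of 68 and histone genes 5 of 67. The median share of unique words was 74.2% in the 29 members with Zfp genes, against 93.3% in the 147 other windows with them, and 73.3% in the 5 members with cytochrome P450 genes, against 93.4% in the 34 others. It was 89.6% in the single member with H2 genes, against 82.6% in the 3 others. Of 23 classical and atypical cadherins, 7 started in a member, and these were Cdh7, Cdh8, Cdh9, Cdh10, Cdh12, Cdh18 and Cdh19. Their windows had a median of 88.7% unique words, against 94.4% in the 14 others with such genes.

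Other clustered families lay outside the members. No start site in a member was found for 60 serpins, 57 keratin-associated proteins, 55 clustered protocadherins, 53 keratins, 36 cornified envelope genes, 22 UDP glucuronosyltransferases, 20 type I interferons, 19 Mas-related receptors or 19 Ms4a genes. The listed keratin, cornified envelope and clustered protocadherin genes were thus in windows with anchors, whereas most vomeronasal receptor genes were not. The median share of unique words was 93.4% in the 16 windows with serpins, 95.3% in the 4 with keratins, 76.3% in the 2 with cornified envelope genes and 90.6% in the 2 with clustered protocadherins. In members it was 69.1% in the 15 with type 1 and 72.8% in the 17 with type 2 vomeronasal receptors. The 95% interval for 0 of 60 reaches 6.02%, below the 12.1% of all protein-coding start sites, but these genes lie in a few arrays each, so single windows decide many of the shares.

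**Figure D4:**
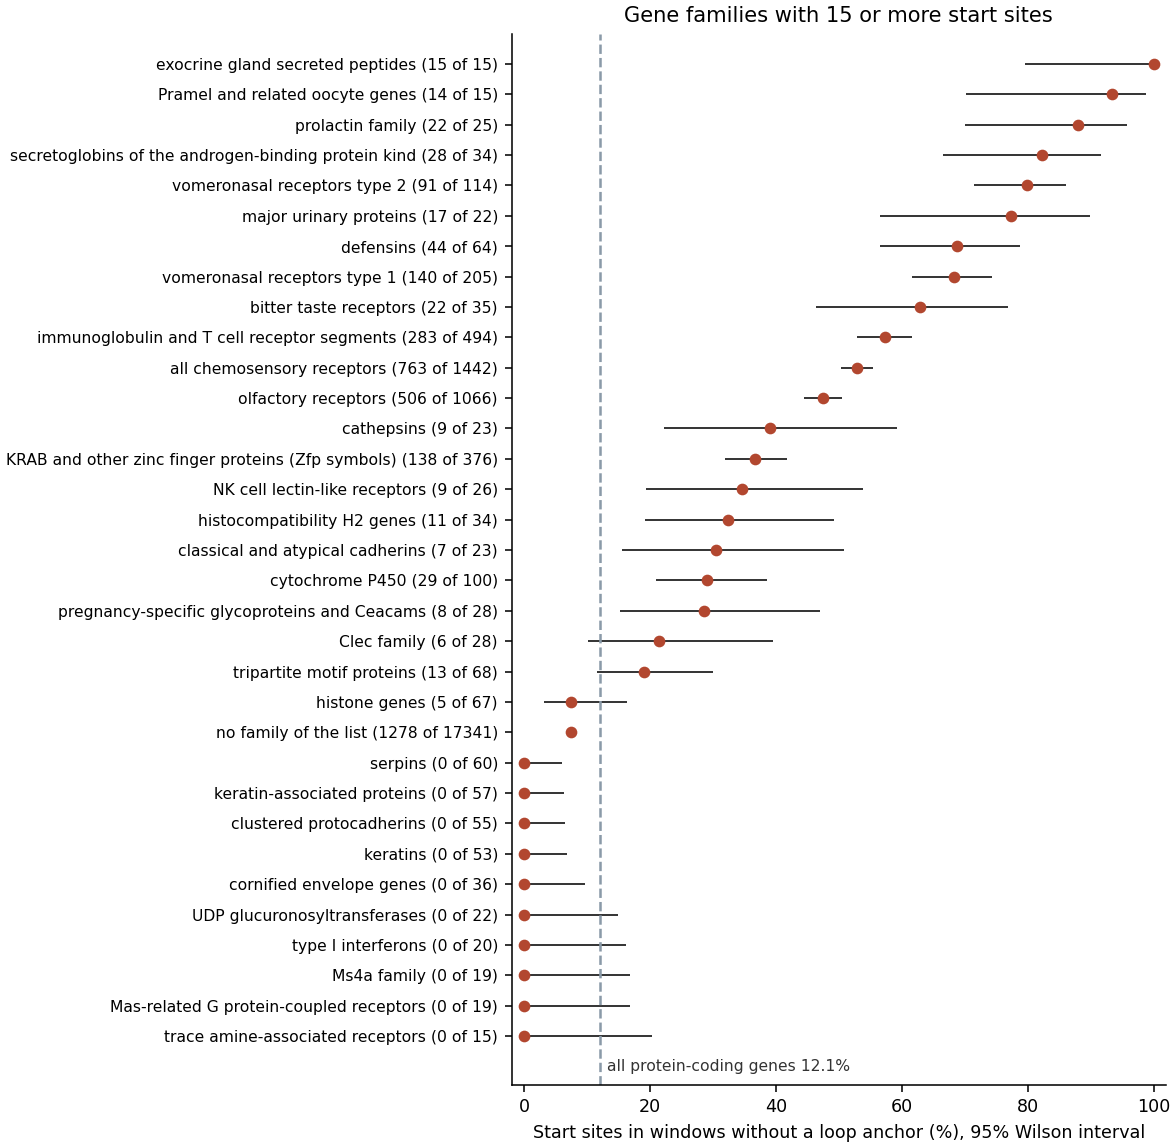
Share of start sites that lie in windows without an anchor (horizontal axis, percent, points with 95% Wilson intervals) for gene families with 15 or more start sites, with counts in brackets. The dashed line is the share over all protein-coding start sites, 12.1%. Families run from 0 of 60 (serpins) to 15 of 15 (exocrine gland secreted peptides).

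Gene segments of immunoglobulins and T cell receptors, which are joined by recombination in lymphocytes, had 283 of 494 start sites in members (57.3%), while 14.9% of the start sites of all annotated genes did. By type, 171 of 218 immunoglobulin V segments lay in members, against 79 of 144 T cell receptor V segments. Of the 70 T cell receptor J segments, 0 did. By window, 6 of the 17 windows with any segment of either receptor were members. The heavy chain locus spanned 3 adjoining members, chr12:113000001-116000000, with 58, 50 and 37 segments, and the kappa light chain locus spanned 2, chr6:68000001-70000000, with 28 and 31. The alpha and delta locus of the T cell receptor gave 1, chr14:53000001-54000000, with 79 segments. Unique words in these windows ranged from 48.8% to 83.7%, and their CTCF consensus matches, from 19 to 70 per Mb, lay in part far above the median of 14 in the members. Unprocessed pseudogenes, copies left by tandem duplication, had 821 of 1725 start sites in members (47.6%), whereas antisense transcripts had 135 of 2858 (4.72%).

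The start sites themselves also differed in sequence. Around the 2429 protein-coding starts in members, the 300 bases from the genome held a median of 2 CG dinucleotides (interval 2 to 3), against 13 around the 17696 starts in windows with an anchor. Chemosensory receptor starts had a median of 1 in members and 1 in the other windows. Without the listed families the medians were 6 in members (interval 5 to 7) and 15 in the other windows. The lower CG count was therefore found also among genes of no listed family. Some of these genes lie within the arrays, such as 64 in the run chr7:20000001-25000000, and windows with arrays were not left out. RefSeq promoters, from which the sequences above were printed, matched 1868 of the 2429 genes by symbol.

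Genes that start in members were short, with a median length of 7.93 kb against 19.8 kb in windows with an anchor. Very long genes were nevertheless part of the picture. Of all genes that start in members, 1.56% (interval 1.14 to 2.14) were 500 kb or longer, against 1.00% (0.864 to 1.16) in windows with an anchor. Outside the listed families it was 33 of 1278 (2.58%, interval 1.84 to 3.60), compared with 175 of 16063 (1.09%). Of all 218 protein-coding genes of this length, 57 (26.1%) had no anchor bin anywhere in their body, and 55 overlapped a member. Genes this long can touch several windows, and no share over other genes is given beside these counts.

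Over 1 Mb of Lrp1b, Cntnap2, Fhit, Naaladl2 and Cdh12 lay in members, and none of these 5 bodies held an anchor bin. Lrp1b encodes a lipoprotein receptor and is 2058 kb long, of which 1405 kb lay in members. Cntnap2 encodes a neurexin-like protein of axons and is 2245 kb long, of which 1304 kb did. The genes of this paragraph were picked after their values were seen.

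Members were gathered into runs. Of the 408 members, 300 (73.5%, interval 69.0 to 77.6) directly adjoined another member, and of the windows beside a member 49.6% were empty, compared with 17.5% of the windows beside any window. The members formed 206 runs, of which 108 were single windows, 48 had 2 windows, 26 had 3 and 24 had 4 or more. The distance between the anchors that enclose a run had a median of 2425 kb. Windows with an anchor that adjoined a member were intermediate, with a median of 3 anchor bins, 40.4% GC and 4 protein-coding start sites, against 6 anchor bins, 42.8% GC and 6 start sites in those that adjoined none.

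The longest stretch without an anchor was 10720 kb on chromosome 15 and enclosed the run chr15:14000001-24000000 of 10 windows. It held 5 protein-coding start sites, and 4 of them were the cadherins Cdh9, Cdh10, Cdh12 and Cdh18, calcium-dependent adhesion proteins of neurons. The fifth was Acot10, a small gene for an acyl-CoA thioesterase. Cdh12 and Cdh18 lay with their whole bodies of 1140 and 925 kb in this run. Unique words made up 87.8% of it, close to the median of all members.

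The other run of 10 windows, chr7:52000001-62000000, was enclosed by anchors 10250 kb apart. It held 18 protein-coding start sites and 333 annotated start sites in all, of which 212 were small nucleolar RNAs. The run includes the imprinted region of Ube3a and Snrpn, and also holds the GABA receptor subunit genes Gabrg3 and Gabra5 and the pigmentation genes Oca2 and Herc2. Among its long genes were Gabrg3 with 671 kb, Luzp2 with 433 kb and Oca2 with 297 kb. Unique words made up 82.6% of the run.

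Chromosome 7 had the largest share of members, with 44 of 141 windows (31.2%), and 2 more of the runs of 5 or more windows, of which there were 13. The run chr7:7000001-16000000 held 114 protein-coding start sites, among them 28 type 2 vomeronasal receptors from Vmn2r29 to Vmn2r56, 25 type 1 receptors from Vmn1r66 to Vmn1r90 and 11 Zfp genes from Zfp954 to Zfp446. Its longest other genes were Obox1, Obox3 and Sult2a4, and 47.3% of its words were unique. The run chr7:20000001-25000000 held 142 start sites, 65 of them type 1 vomeronasal receptors from Vmn1r91 to Vmn1r183 and 12 Zfp genes, with 32.1% unique words.

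The other long runs ranged from 2 to 211 protein-coding start sites. The run chr2:86000001-91000000 held 211 protein-coding start sites, of which 196 were olfactory receptors from Olfr1032 to Olfr1274-ps, with 81.1% unique words, and its longest other genes were Ptprj, Celf1, Nup160, Agbl2 and Fnbp4. The run chr4:143000001-148000000 held 72, with 18 Zfp genes and 12 Pramel and related oocyte genes, and the other 42 belonged to no listed family. Of its words 56.4% were unique, and 8.64% of its bases were unknown. In contrast, the 7 windows of chr3:42000001-49000000 held only Pcdh10, a protocadherin, and Pabpc4l. The 5 windows of chr1:25000001-30000000 held Adgrb3, an adhesion receptor of 762 kb, and 2 short genes. Cntnap5a, with 903 kb the longest gene of chr1:113000001-118000000, lay wholly in that run of 5 windows. The run chr12:18000001-24000000 had 9 protein-coding start sites, among them Asap2, Adam17 and Ywhaq, and 32.7% unique words. As 8 runs had 5 windows, 3 of the same length are not among the first 10. They are chr8:96000001-101000000 with Cdh8 alone, chr12:59000001-64000000 with 7 protein-coding start sites and chr17:18000001-23000000 with 65, of which 42 were chemosensory receptors.

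**Figure D5:**
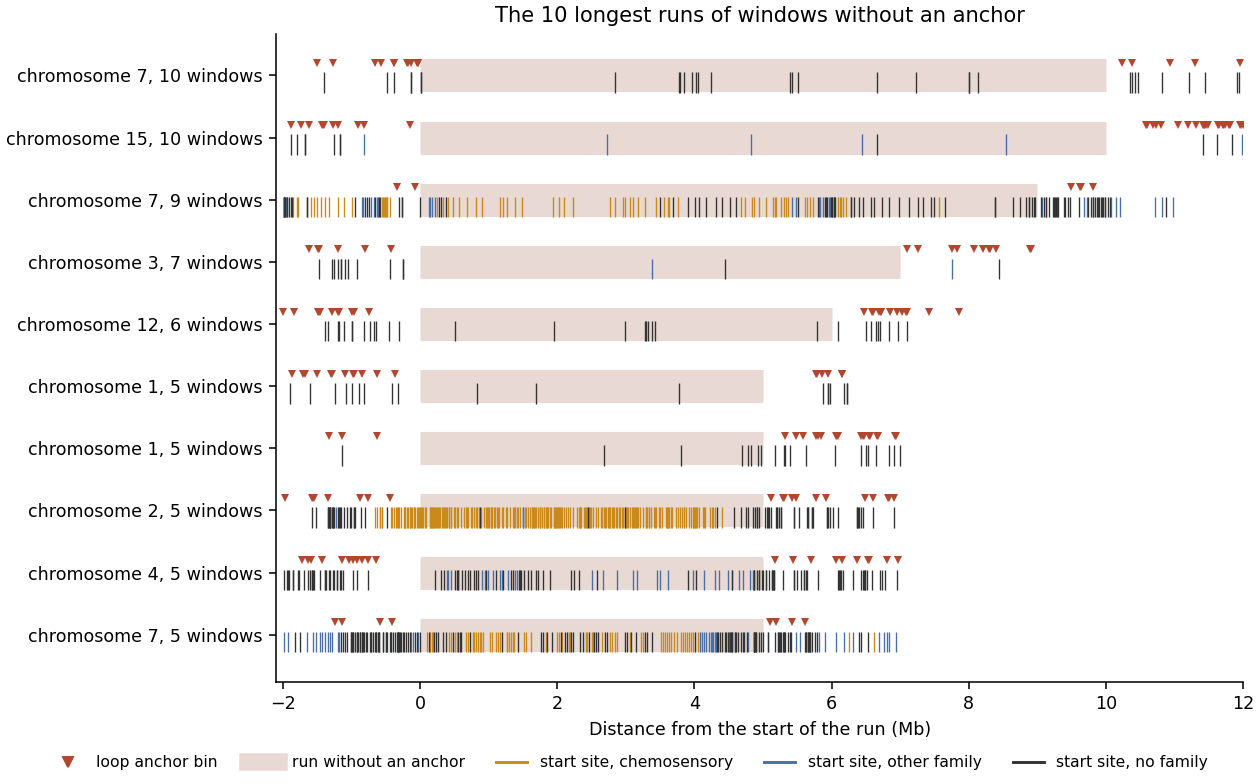
The 10 longest runs of windows without an anchor (shaded), with ties in order of chromosome, so that 5 of the 8 runs of 5 windows are shown, drawn as distance in Mb from the start of each run (horizontal axis) with 2 Mb on either side. Triangles are loop anchor bins and vertical ticks are protein-coding start sites, coloured by gene family. Some runs, such as that of 10 windows on chromosome 15 with 5 start sites, hold few protein-coding genes, while the run of 5 windows on chromosome 2 holds 211.

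Chromosomes varied in their share of windows without an anchor. After chromosome 7 came chromosome 17 with 23.3%, chromosome 14 with 22.4% and chromosome 4 with 21.9%. The lowest shares were 8.77% on chromosome 19, which had 5 members, 9.40% on chromosome 11 and 9.57% on chromosome 9. The X chromosome was not part of the choice, and 63.9% of its 158 windows had no anchor.

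A small group of members was rich in genes and also in unique sequence. Only 6 members had 5 or more protein-coding start sites and at least 90% unique words, and these are named after their values were seen. The window chr2:25000001-26000000 had the most protein-coding start sites of all members, 61, among them Camsap1, Kcnt1, Traf2, Grin1 and Rabl6, with 94.1% unique words, 49.7% GC and 54 CTCF matches. It also held Tprn, which encodes taperin at the base of the stereocilia and was not in the list of hearing genes. It lay between windows with 6 and 7 anchor bins. The window chr2:32000001-33000000 held 35 start sites, with Prrc2b and Dnm1, and lay between windows with 11 and 13 anchor bins.

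The window chr8:70000001-71000000 held 50 start sites, among them Crtc1, Ell and Sugp2, with 95.4% unique words. The window chr7:30000001-31000000 held 60, with 6 Zfp genes from Zfp14 to Zfp146 and, among the others, Wdr62, Nphs1 and Kmt2b. The other 2 were chr5:108000001-109000000 with 21 start sites and chr7:24000001-25000000 with 41. The GC content of the 6 windows ran from 42.2% to 51.3%, and each had at least 39 CTCF consensus matches, so they stood at the opposite end from most members in composition. The window chr17:34000001-35000000, which has the class II region of the major histocompatibility complex and 55 protein-coding start sites, was similar but had 89.6% unique words.

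Of 88 genes of hearing and of hair bundle development in the windows, 5 (5.68%, interval 2.45 to 12.6) started in a member. The interval includes both the 7.37% of start sites outside the listed families and the 12.1% of all protein-coding start sites. Of the 5 genes in members, 4 are described. Pcdh15 is 1550 kb long and had its first 901 kb in the member chr10:73000001-74000000. Its annotated GENCODE start was 1111 kb from the nearest anchor, while 4 anchor bins lay in the other part of its body.

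Col11a2, a collagen of the tectorial membrane, started in the histocompatibility window, 229 kb from an anchor. Syne4, a nuclear membrane protein of outer hair cells, started in the gene-rich window chr7:30000001-31000000, 785 kb from an anchor. Grxcr2, which shapes the stereocilia, started in chr18:41000001-42000000, 30.95 kb from an anchor in the next window. These distances follow in part from the choice of the windows.

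Loops passed over few of the members. A loop can span a 1 Mb window only when it is longer than that, and 434 loops of the list were 1 Mb or longer, up to 1960 kb. Of these, 131 spanned any window and 30 spanned a member. Loops spanned 24 members (5.88%, interval 3.98 to 8.60), compared with 12.2% of windows with 1 anchor bin and 3.96% of all windows. All 24 were among the 108 runs of a single window, and none of the 98 runs of 2 or more windows was crossed by a loop. Since loops in the list are under 2 Mb and these longer runs are 2 Mb or more, their lack of loops follows from the lengths. The 5.88% counts all 408 members, 300 of which lie in such runs and could not be spanned by any listed loop.

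The loop with the lowest FDR of all 6798 loops, 4.55e-08, was one of the 30. It joined chr19:38980001-38990000 and chr19:40210001-40220000, 1230 kb apart, and passed over the member chr19:39000001-40000000. This window held 11 protein-coding start sites, all of them Cyp2c genes from Cyp2c55 to Cyp2c37, which encode drug- and lipid-oxidising enzymes. Only 68.7% of its words were unique and 60.9% of its sequence was marked as repetitive. No start site lay at either anchor, and the upstream anchor held an exact consensus match pointing towards the window. The remaining 29 spanning loops had FDR values from 0.000646 to 0.0995.

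At 6 of the 30 loops a protein-coding start site lay at an anchor, and no share over all loops is given beside this count. The start site of Myc, the growth-promoting transcription factor, looped over chr15:62000001-63000000, a window without a protein-coding gene body. Its 2 partners lay 1670 and 1760 kb away, with FDR values of 0.00731 and 0.0365. Noncoding genes in this window were not examined. This member was 92.9% unique and 41.1% GC, which sets it apart from the median of 37.0% GC in members without a protein-coding gene body. The start site of Crbn, the cereblon ubiquitin ligase receptor, looped 1250 kb over chr6:107000001-108000000 with an FDR of 0.000952. That of Kctd16, an auxiliary subunit of GABA receptors, made 2 loops of 1780 and 1960 kb over chr18:41000001-42000000, the window of Grxcr2. The start site of Cpeb2, a regulator of translation, lay at the end of a loop of 1350 kb over chr5:42000001-43000000.

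The window spanned by most loops was chr10:101000001-102000000, with 3 loops of 1410, 1680 and 1820 kb. It held a single protein-coding start site, that of Mgat4c, a glycosyltransferase gene of 710 kb, and 7 CTCF matches. The windows chr5:42000001-43000000, chr8:59000001-60000000, chr15:62000001-63000000 and chr18:41000001-42000000 were each spanned by 2 loops. The window chr8:59000001-60000000, without a protein-coding start site, lay under loops of 1900 and 1580 kb that start in the body of Galntl6. Bodies of long genes lay at the ends of others, such as Chrm3 and Ryr2 at the 2 ends of a convergent loop of 1680 kb over chr13:10000001-11000000. Of the 30 loops, 23 had an FDR below 0.05 and 10 an FDR below 0.01. Their median FDR of 0.0172 was close to the 0.0181 of the 434 loops of 1 Mb or more.

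The anchors that border the runs mostly looped away from them. Of the 206 left borders 184, and of the 206 right borders 185, had partners only on the far side from the run, which the choice of the windows favours. For the 98 runs of 2 or more windows no other result was possible, because every loop in the list is under 2 Mb. Where a left border with partners only on the far side had a single CTCF orientation, 68 of 76 (89.5%, interval 80.6 to 94.6) pointed away from the run, on the reverse strand. Among all anchors with partners on the left only, 82.1% of 2560 did. At the right borders 62 of 76 (81.6%, interval 71.4 to 88.7) were on the forward strand, against 2052 of 2564 anchors with partners on the right only. The borders thus had close to the orientation found at any anchor with partners on the same side.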

How the data were processed

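Reads of the 4 Micro-C replicates were aligned by the authors to mm10 (BWA-MEM), and uniquely mapped chimeric pairs were kept after removal of duplicates. Loops were called by the authors on the merged replicates at a bin size of 10 kb with Mustache. Each deposited loop carries a q-value (FDR, below 0.1) and a score, the detection scale, and both were used as given. The list gives no depth.

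Windows, start sites (GENCODE vM21) and sequence (GRCm38.p6) were counted in Python 3.11.15 (pandas 2.3.3, numpy 2.4.6) and plotted with matplotlib 3.10.9. Families follow gene symbols. The 14-base CTCF consensus, with up to 1 mismatch, was written from general knowledge. The scan for unique words and motifs was tested on simulated data. No test over windows was made. The members, gene lists and families were chosen with earlier results of these data known.

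Named by rule are the 10 longest runs, the 5 members each with most start sites, most genes of 1 family and most spanning loops, and members with hearing genes. Their genes are named in full up to 5, otherwise by family, first and last symbol and the longest others, of which the text gives a part. Some genes are not reported here. Stricter FDR, other window sizes and positions, filters, chromosome sets and gene counts were tried.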

Additional observations from a re-analysis of the deposited data

How the results depend on the processing

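No paired analysis was possible because the replicates were merged before loops were called, and for the same reason no replicate was left out. Of 109 values recomputed, 63 stayed inside their 95% interval (for the number of windows, within 1.5 times) and 46 did not. None moved when the windows were shifted by 500 kb or when those with over 10% unknown bases were left out.

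The share of windows without an anchor was 20.9% at FDR below 0.05, 20.9% at the smallest detection scale, 20.3% with chromosome X, 19.6% with chromosome ends, 14.4% without windows under 80% unique words, and 30.3% (702 windows) at FDR below 0.01. It was 27.8% (1310) for windows of 500 kb and 9.43% (110) for 2 Mb. The share of members with no protein-coding start site was 30.9% at FDR below 0.01, 35.2% at the smallest scale, 35.4% with X, 46.6% with ends, 50.3% without the less unique windows, 55.0% at 500 kb and 19.1% at 2 Mb. The median number of start sites was 0 without the less unique windows and at 500 kb, and 8 with all annotated genes. The share with a chemosensory start site was 5.03% without the less unique windows, 6.32% without chromosome 7 (chosen after seeing the data), 7.71% at 500 kb and 15.5% at 2 Mb. Over all windows of these settings it was 4.07%, 4.44%, 3.82% and 8.23%, in the same order. The share adjoining another member was 78.3% at FDR below 0.01, 77.6% with X, 81.1% at 500 kb and 43.6% at 2 Mb, and the share spanned by a loop was 3.42% at FDR below 0.01, 17.2% at 500 kb and 0% at 2 Mb.

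The median GC content was 38.7% at FDR below 0.01, 38.2% at the smallest scale, 38.4% at 500 kb, 37.6% at 2 Mb and 37.4% without the less unique windows. CTCF consensus matches had a median of 16 at FDR below 0.01, 13 without the less unique windows, 13 with ends and 0 for exact matches (2 in all windows). Unique words had a median of 87.85% at FDR below 0.01, 87.4% at 500 kb, 86.1% at 2 Mb, 87.8% without the less unique windows and 85.9% with X. Smaller windows and stricter thresholds leave more windows empty by construction, and causes beyond that were not tested. The list gives no depth, so weak loops missed by the caller cannot be counted.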
